A study of Homo sapiens with 12 samples.

Results

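The comparison described here asks what hydroxypropyl-beta-cyclodextrin (HPbCD) changes in the transcriptome of LB cells that are exposed to amiodarone. It sets 3 libraries of LB cells given amiodarone plus HPbCD against 3 libraries of LB cells given amiodarone without HPbCD. Its members are the 13873 genes whose TPM, a transcript's share of its library scaled to a fixed total, averages 1 or more over those 6 libraries, out of 57152 genes with a value and 29268 above 0 in any library. The genes were taken by level alone, without regard to how they differed between the groups.

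The series holds 12 libraries of human cell lines in 4 groups of 3, and per the labels the LB line has A549, a lung adenocarcinoma line, as its source. Both groups compared were seeded in RPMI with serum, and after 24 h received 10 µM amiodarone for 24 h. In the group called LB amiodarone plus HPbCD, 10 mg/ml HPbCD was present from seeding. LB DMSO and A549 DMSO, the other two groups, received 0.1% DMSO as the vehicle and neither agent, and the labels do not say whether the amiodarone groups received DMSO too. LB DMSO is quoted as the level without drug. None of the 4 groups received HPbCD alone, so every difference below is one measured in the presence of the drug. The labels do not say how the LB line was made or whether it is 1 clone.

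Amiodarone is a cationic amphiphilic antiarrhythmic drug that collects in lysosomes, disturbs the handling of phospholipid and cholesterol there, and is known for lung toxicity. HPbCD is a ring of sugar units that holds sterols in its cavity and can carry cholesterol across membranes and out of lysosomes. Cells read the sterol content of the endoplasmic reticulum through SREBP factors, which switch on genes of sterol synthesis and uptake when sterol is low. Interferon-stimulated genes are a separate programme, switched on by STAT and IRF factors after cells meet an interferon or sense nucleic acid in the wrong place.

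Levels are TPM, given per library in the order of replicates 1 to 3 or as mean ± SD over n = 3 libraries. Differences are on the log2(TPM + 1) scale, with HPbCD minus without, ± the standard error. This scale understates changes of low genes. Adjusted p are from limma, over all 13873 genes. Whether the 3 replicates of a group came from separate cultures is not stated, so a p-value reflects the spread between these samples and that spread may be technical. Positions of genes were read from GENCODE 29 (GRCh38).

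The labels name no cell type for the LB line beyond its source. Of the genes that define alveolar type II cells, SFTPC (surfactant protein C) was at 458 to 674 TPM over the 6 libraries, while LAMP3, a lamellar body protein, lay between 0.19 and 0.57 TPM and SFTPA1 and SFTPA2 at or near 0. Summed over the 10 fibroblast markers searched, levels were 15.5 to 20.8 TPM with amiodarone and 9.4 to 10.2 TPM with HPbCD, and none was at 0 throughout. The 10 leukocyte markers summed to at most 3.96 TPM, with 4 of them at 0 in all 6 libraries, and the 8 endothelial markers to at most 0.89 TPM. Across the 13873 genes, which are not independent replicates, libraries correlated at 0.986 to 0.988 within the groups and at 0.982 to 0.985 between them. TPM keeps no read depth, so the counting error behind each value is unknown. In these bulk samples, fewer cells of a type and less RNA per cell cannot be told apart.

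With HPbCD, 585 genes (4.22% of those tested) passed the test at an adjusted p under 0.05. Of these, 392 rose (2.83%) and 193 fell (1.39%). These shares are the background to every count in a gene list below. Most changes were small, and the median size was 1.36-fold for rises and 1.36-fold for falls. At least 2-fold changes were almost all rises: 50 genes (0.36%) rose and 3 (0.0216%) fell by that much. Among these rises, BATF2, BST2, IFI44L, IGFBP1, IL24, IL4I1, MX2 and OAS2 averaged under 1 TPM without HPbCD. They entered the test only through the libraries with HPbCD, and AC015813.4 among the falls only through those without. The median log2 difference of all tested genes was -0.01. The 3 and 3 libraries did not overlap for 3508 genes (25.3%), higher with HPbCD for 1815 (13.1%) and lower for 1693 (12.2%). All 585 called genes were among these. Without any one of the 6 libraries compared, 205 to 249 genes rose and 84 to 117 fell. Passing the test with each of the libraries left out and under every other alternative setting that tested them were 216 genes, 160 that rose and 56 that fell.

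**Figure D1:**
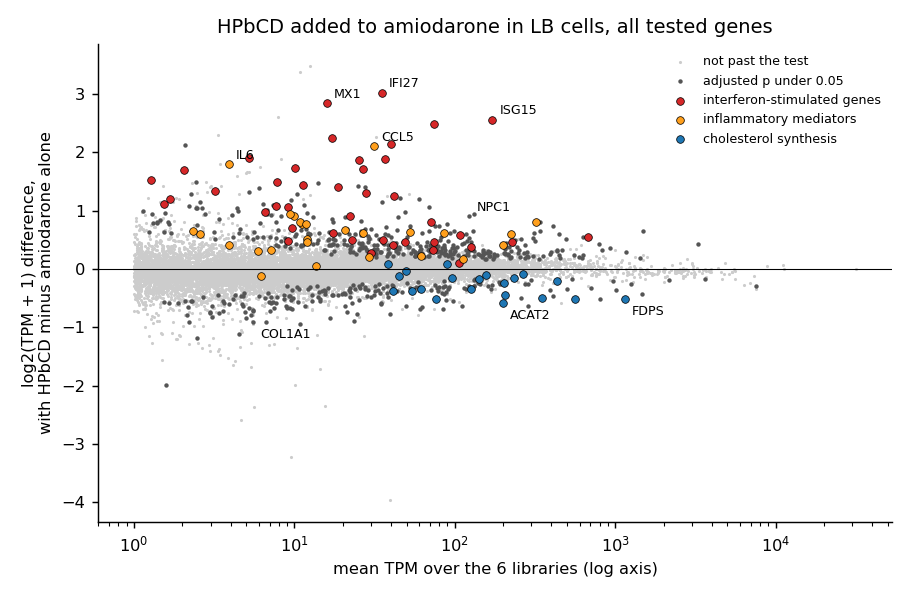
Each point is 1 of the 13873 genes, with its mean TPM over the 6 libraries on a log axis and its log2(TPM + 1) difference, with HPbCD minus amiodarone alone, on the vertical axis. Dark points passed the test, and coloured points are the members of 3 gene lists. Interferon-stimulated genes (red) reach a difference of 3.02 (IFI27), while no cholesterol synthesis gene (blue) lies below -0.57 (ACAT2).

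Among genes past the test, IFI27, MX1 and other interferon-stimulated genes had the largest differences. Of 41 such genes tested, 39 rose, 0 fell and 2 (IFITM2 and PSMB9) did not pass, and the median log2 difference was 1.11. Of the 50 genes at least 2-fold higher, 23 were on this list. The call held with each of the 12 libraries left out in turn for 34 of the 39. IFI44L, MX2, OAS2 and BST2 averaged under 1 TPM without HPbCD and entered the test only through the libraries with HPbCD, so the count and median include 4 genes that had to differ. With genes filtered on their mean over all 12 libraries, which still include those with HPbCD, 37 of 39 rose. Summed over the 45 members in the table, the level was 1723, 1639 and 1545 TPM with amiodarone and 3242, 2902 and 2771 TPM with HPbCD. The groups did not overlap, and in LB DMSO the sum was 1539, 1554 and 1503 TPM. The sum is weighted towards abundant members such as B2M.

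IFI27, a small mitochondrial and nuclear envelope protein widely used as an interferon marker, lies on chromosome 14 (94104836 to 94116698, plus strand). It was at 9.97, 4.86 and 5.89 TPM with amiodarone and at 88.0, 52.1 and 49.2 TPM with HPbCD (log2 difference 3.02 ± 0.28, adjusted p = 6.60e-05). The groups did not overlap, and LB DMSO libraries at 4.95 to 7.70 TPM lay in the range of amiodarone alone. ISG15, the ubiquitin-like modifier that is attached to proteins in the antiviral state, was at 63.7, 50.7 and 35.3 TPM without and 323, 291 and 263 TPM with HPbCD (log2 difference 2.56 ± 0.19, adjusted p = 1.08e-05). MX1, a GTPase that blocks viruses, was at 4.27, 2.76 and 2.42 TPM without and 36.2, 26.1 and 23.9 TPM with HPbCD (log2 difference 2.84 ± 0.18, adjusted p = 5.80e-06). For each of these genes the lowest library with HPbCD stood well above the highest without it.

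Several sensors and factors of the pathway rose along with the effectors, and not all of the pathway's sensors and factors are given here. IRF7, the factor that amplifies interferon production, was at 6.83, 5.05 and 4.35 TPM with amiodarone and 31.4, 27.8 and 27.7 TPM with HPbCD (log2 difference 2.24 ± 0.14, adjusted p = 5.80e-06). DDX58, which encodes the cytosolic RNA sensor RIG-I, went from 3.60 ± 0.27 to 11.9 ± 1.68 TPM (log2 difference 1.49, adjusted p = 2.17e-05). IFIH1, for the related sensor MDA5, went from 1.40 ± 0.46 to 5.00 ± 0.69 TPM (log2 difference 1.33, adjusted p = 0.000757). IRF9, the DNA-binding subunit of the interferon-activated factor ISGF3, rose from 24.5 ± 1.67 to 59.6 ± 4.17 TPM (log2 difference 1.25), and STAT2, its partner in that factor, had a log2 difference of 0.62.

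Among effectors, IFIT1, which binds viral RNA lacking a host cap, was at 15.6, 14.3 and 12.2 TPM without and 78.7, 63.6 and 56.2 TPM with HPbCD (log2 difference 2.15 ± 0.15, adjusted p = 8.05e-06). It stood at 4.36 to 5.62 TPM in LB DMSO, below each library with amiodarone. OAS1, which makes the activator of the RNA-degrading enzyme RNase L, went from 15.1 ± 2.08 to 58.8 ± 7.79 TPM (log2 difference 1.89). Antigen presentation genes moved less. B2M, the invariant chain of class I molecules, was at 568, 543 and 543 TPM without and 841, 784 and 793 TPM with HPbCD (log2 difference 0.55 ± 0.05, adjusted p = 0.000126), and HLA-B went from 15.3 ± 0.48 to 29.5 ± 1.56 TPM. HLA genes and the neighbouring IFITM genes have close copies, so how their reads were divided is uncertain.

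**Figure D2:**
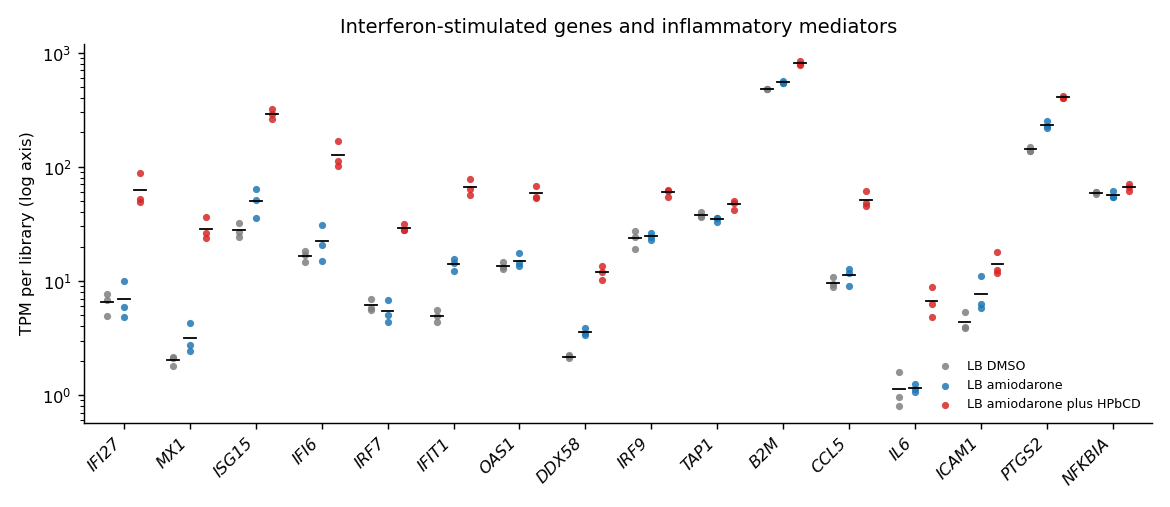
TPM of 11 interferon-stimulated genes (IFI27 to B2M) and 5 inflammatory mediators (CCL5 to NFKBIA) on a log axis. Each point is 1 library and each bar the mean of 3, in grey for LB DMSO, blue for LB amiodarone and red for LB amiodarone plus HPbCD. ISG15 reads 263 TPM or more with HPbCD and 63.7 TPM or less without it, whereas B2M moves only from 552 to 806 TPM.

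Interferon transcripts themselves were near the floor of the table. IFNB1 was listed at 0 in all 3 amiodarone libraries and at 0.07, 0.07 and 0 TPM with HPbCD, and IFNL1, a type III interferon, at 0.19, 0 and 0.26 TPM without and 0.15, 0.42 and 0.27 TPM with HPbCD. CXCL10, a chemokine that interferon induces in many cells, was listed at 0 in all 3 libraries with HPbCD. None of these reached the mean of 1 TPM needed for a test. The receptor chain IFNAR1 was tested and did not pass, at 22.2 TPM without and 20.6 TPM with HPbCD (log2 difference -0.10, adjusted p = 0.68).

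Promoters of interferon-stimulated genes are known for a repeated GAAA sequence that STAT and IRF factors bind. Windows of 300 bases, 250 before to 50 after the start, were taken from RefSeq (GRCh38.p14), and 31 of the 41 tested members matched one. The letters GAAANNGAA, searched on both strands, were found in 19 of these 31 windows (61.3%), in 8.29% of all 27305 windows and in 6.34% of the 10167 windows of tested genes. The cholesterol synthesis windows held it in 1 of 16 (6.25%). A match is a description of the letters and not evidence of binding. The stretches shown are those of the 6 members with the largest differences among genes with a match before the start. Capitals mark the motif, which reads TTCNNTTTC where it lies on the other strand, and each stretch runs 5′ to 3′ along the gene.
IFI27 (chr14:94110616-94110675, plus strand): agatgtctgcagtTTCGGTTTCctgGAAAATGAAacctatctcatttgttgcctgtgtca
ISG15 (chr1:1013371-1013430, plus strand): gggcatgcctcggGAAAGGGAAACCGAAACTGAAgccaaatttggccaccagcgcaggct
IFI6 (chr1:27672251-27672310, minus strand): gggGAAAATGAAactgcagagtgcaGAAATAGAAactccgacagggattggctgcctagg
IFIT1 (chr10:89392496-89392555, plus strand): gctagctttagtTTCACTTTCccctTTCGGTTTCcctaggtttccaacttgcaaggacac
IFITM1 (chr11:313975-314034, plus strand): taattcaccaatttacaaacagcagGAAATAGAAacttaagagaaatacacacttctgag
IFI44 (chr1:78649729-78649788, plus strand): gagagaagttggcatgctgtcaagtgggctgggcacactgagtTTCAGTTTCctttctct
The ISG15 stretch holds 3 overlapping matches in a row, IFI27, IFI6 and IFIT1 hold 2 each, and IFITM1 and IFI44 hold 1. The gene with the greatest number of matches is not the one with the greatest difference, since IFI27 exceeded ISG15.

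Inflammatory mediators rose as well. Of 26 tested, 12 rose and 0 fell, with a median log2 difference of 0.61. Without any one of the 6 libraries compared, 6 or 7 of them passed, and 6 held the call with each of the 12 libraries left out. CCL5, a chemokine for T cells, was at 11.7, 12.8 and 9.11 TPM without and 48.4, 61.0 and 45.2 TPM with HPbCD (log2 difference 2.11 ± 0.14, adjusted p = 6.45e-06). IL6, the cytokine that drives the acute phase response, was at 1.14, 1.07 and 1.25 TPM without and 8.87, 4.80 and 6.26 TPM with HPbCD (log2 difference 1.79 ± 0.19, adjusted p = 0.000221). Both genes stood in LB DMSO at levels that overlapped those of amiodarone alone.

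PTGS2, the inducible cyclooxygenase that makes prostaglandin precursors, was at 217, 228 and 250 TPM without and 402, 399 and 421 TPM with HPbCD (log2 difference 0.81 ± 0.15, adjusted p = 0.00864). PTGES, the enzyme that follows it to prostaglandin E2, went from 171 ± 12.4 to 228 ± 15.9 TPM (log2 difference 0.41, adjusted p = 0.00293). IL11, a cytokine of the IL6 family, went from 6.61 ± 0.97 to 13.3 ± 0.49 TPM (log2 difference 0.91). SOD2, a mitochondrial superoxide dismutase induced by NF-kappaB, had a log2 difference of 0.63. CXCL8, the neutrophil chemokine, was at 1.89, 1.74 and 1.18 TPM without and 2.99, 3.49 and 2.74 TPM with HPbCD. Its groups did not overlap, but its adjusted p of 0.05004 missed the threshold.

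Genes that respond early to growth factors rose in 11 of 25 cases, with 0 falls and a median log2 difference of 0.29. FOSB, 1 of the 11, averaged under 1 TPM without HPbCD and entered the test only through the libraries with HPbCD. The number of rises was 4 to 6 without any one of the 6 libraries compared. The 4 that held the call with each of the 12 libraries left out were 3 phosphatases that switch off MAP kinases, DUSP1, DUSP4 and DUSP5, and PHLDA1. DUSP5 was at 26.5, 29.3 and 25.4 TPM without and 69.7, 66.6 and 57.0 TPM with HPbCD (log2 difference 1.22 ± 0.10, adjusted p = 2.75e-05). DUSP1 went from 56.1 ± 2.58 to 94.5 ± 10.6 TPM (log2 difference 0.74). PLAUR, the urokinase receptor, was at 48.5, 49.3 and 48.8 TPM without and 79.4, 74.5 and 72.7 TPM with HPbCD (log2 difference 0.62 ± 0.06, adjusted p = 9.51e-05). Of 15 tested targets of the factor YAP, 2 rose, 0 fell and 13 did not pass (median 0.14), where 2.83% of all tested genes rose. The 2 were DKK1, from 212 ± 2.67 to 305 ± 17.2 TPM, and FGF2, from 18.1 ± 0.85 to 24.5 ± 1.42 TPM.

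The sterol synthesis pathway went the other way. Of 21 enzymes from acetyl-CoA to cholesterol, 9 fell, 0 rose and 12 did not pass, with a median log2 difference of -0.24. The fall was a partial one. Summed over the 21, the level was 1458, 1454 and 1459 TPM in LB DMSO, 4791, 5215 and 5409 TPM with amiodarone and 4069, 3863 and 4085 TPM with HPbCD. The 3 groups did not overlap, and the sum with HPbCD was 0.78 of that with amiodarone alone. Such a sum is weighted towards its most abundant members, FDPS among them. Amiodarone against LB DMSO and amiodarone plus HPbCD against LB DMSO share libraries with the comparison described, so their values are set side by side only. In the first, 19 of the 21 rose (median log2 difference 1.62) where 5.1% of all genes rose and 3.85% fell. In the second, 19 of the 21 rose (median 1.34) where 10.4% rose and 7.86% fell.

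In the mevalonate arm, ACAT2, the thiolase of the first step (chromosome 6, 159760328 to 159779055, plus strand), was at 216, 233 and 268 TPM with amiodarone and 160, 152 and 166 TPM with HPbCD (log2 difference -0.57 ± 0.07, adjusted p = 0.000857). It stood at 54.2 to 58.5 TPM in LB DMSO, so every library with HPbCD remained above that level. FDPS, which makes farnesyl pyrophosphate, was at 1273, 1395 and 1375 TPM without and 961, 928 and 940 TPM with HPbCD (log2 difference -0.51 ± 0.05, adjusted p = 4.45e-05). MVD, the decarboxylase of the arm, went from 238 ± 17.3 to 175 ± 5.53 TPM (log2 difference -0.44). HMGCS1, the synthase early in the arm, did not pass, at 273 and 255 TPM (log2 difference -0.09 ± 0.12).

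Between squalene and cholesterol, FDFT1, the squalene synthase, was at 602, 689 and 692 TPM without and 470, 455 and 466 TPM with HPbCD (log2 difference -0.51 ± 0.06, adjusted p = 0.000436). LSS, which closes the sterol rings, went from 90.3 ± 4.99 to 62.9 ± 3.16 TPM (log2 difference -0.51, adjusted p = 0.00176). DHCR7, the last enzyme, went from 406 ± 23.5 to 289 ± 8.47 TPM (log2 difference -0.49, adjusted p = 0.000229). These 3 genes, with ACAT2, FDPS and MVD, held the call with each of the 12 libraries left out. SQLE, the oxygenase after squalene synthase, was at 205, 213 and 245 TPM without and 197, 170 and 194 TPM with HPbCD. Its groups did not overlap, yet it did not pass (log2 difference -0.24 ± 0.08, adjusted p = 0.118).

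**Figure D3:**
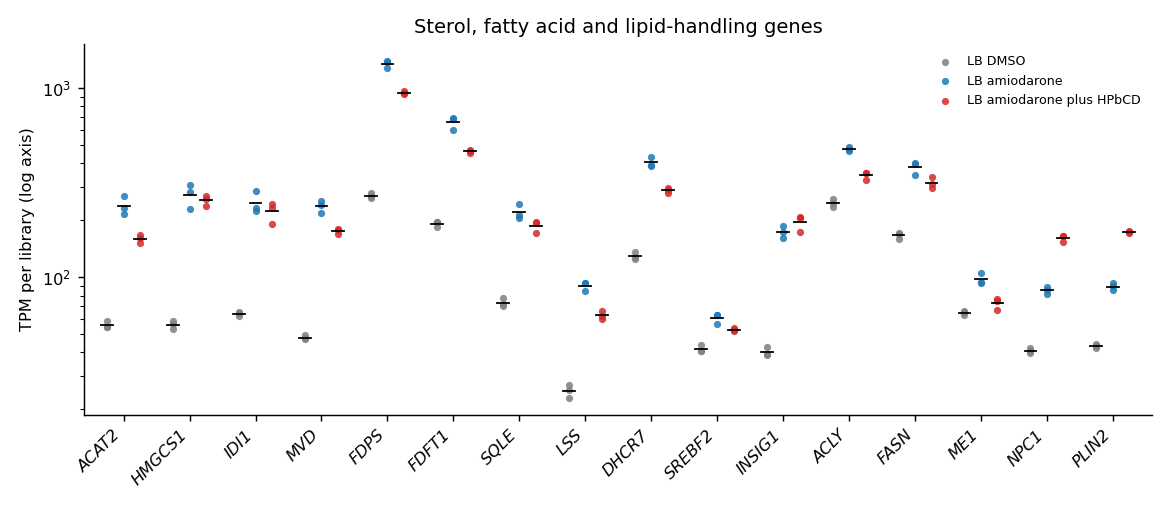
TPM of 16 genes of sterol and fatty acid synthesis, uptake and lipid handling on a log axis, with 1 point per library and a bar at the mean of 3. Grey is LB DMSO, blue LB amiodarone and red LB amiodarone plus HPbCD. Red lies between grey and blue for FDPS (270, 1348 and 943 TPM in the order grey, blue, red), close to blue for HMGCS1 and INSIG1, and above blue for NPC1 and PLIN2.

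Among uptake and sensing genes, few passed the test. INSIG1, which holds SREBP in the endoplasmic reticulum, was at 174 and 195 TPM (log2 difference 0.17 ± 0.09, adjusted p = 0.343). SREBF2, which encodes SREBP2, was at 60.9 TPM without and 52.8 TPM with HPbCD (log2 difference -0.20 ± 0.08, adjusted p = 0.183). Of 16 sensing and uptake genes, 1 rose and 1 fell, where 2.83% of all tested genes rose and 1.39% fell. The median was -0.06, with 6 differences positive and 10 negative. The gene that fell, MBTPS1, did not hold the call with each library left out. RNF145, a sterol-responsive ubiquitin ligase of the endoplasmic reticulum, rose from 74.6 ± 2.77 to 96.7 ± 4.16 TPM (log2 difference 0.37). Among 11 tested targets of the oxysterol receptor LXR, ABCA1, the cholesterol exporter, went from 4.15 ± 0.79 to 7.04 ± 1.52 TPM (log2 difference 0.64, adjusted p = 0.039), but 8 of the 12 libraries were each needed for that call. Its adjusted p was 0.0511 without A549 DMSO replicate 1, 0.0536 to 0.06 without any one of the LB DMSO libraries, 0.0922 and 0.146 without LB amiodarone replicates 2 and 3, and 0.158 and 0.134 without replicates 1 and 2 of LB amiodarone plus HPbCD. ABCG1, the partner exporter, was at 1.09 TPM without and 1.38 TPM with HPbCD and did not pass.

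Fatty acid synthesis and desaturation genes fell in 7 of 19 cases, with 0 rises and a median of -0.26. Without any one of the 6 libraries compared, 3 or 4 fell. ACLY, which makes the acetyl-CoA used for both pathways, was at 462, 489 and 477 TPM without and 358, 354 and 327 TPM with HPbCD (log2 difference -0.46 ± 0.05, adjusted p = 0.000221). ME1, a source of NADPH, went from 97.8 ± 6.43 to 72.8 ± 4.72 TPM (log2 difference -0.42), and FADS1, a desaturase, from 559 ± 9.08 to 440 ± 19.3 TPM (log2 difference -0.34). FASN, the synthase itself, was at 349, 398 and 401 TPM without and 310, 340 and 297 TPM with HPbCD and did not pass (log2 difference -0.28 ± 0.08, adjusted p = 0.0719). Amiodarone against LB DMSO gave 14 rises in this list, where 5.1% of all tested genes rose. The summed level with HPbCD, weighted towards abundant members, was 0.787 of that with amiodarone.

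NPC1, the protein of the lysosomal membrane that hands cholesterol out of the lysosome, rose further instead. It lies on chromosome 18 (23506184 to 23586898, minus strand) and was at 89.3, 81.6 and 85.6 TPM without and 166, 164 and 154 TPM with HPbCD (log2 difference 0.91 ± 0.07, adjusted p = 1.15e-05). LB DMSO stood at 39.8 to 42.0 TPM, so the 3 groups formed 3 separate levels. PLIN2, the main coat protein of lipid droplets, had the same order of levels. It was at 89.5, 85.6 and 92.6 TPM without and 175, 171 and 174 TPM with HPbCD (log2 difference 0.95 ± 0.05, adjusted p = 5.80e-06), and at 42.1 to 44.5 TPM in LB DMSO.

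Of 72 lysosomal enzymes and membrane proteins, 11 rose and 0 fell, and 7 of the 11 held the call with each of the 12 libraries left out. The medians were 0.10 for the 46 enzymes and 0.06 for the 26 membrane proteins, so most of the list moved little. CD68, a lysosomal membrane glycoprotein, was at 38.1, 36.9 and 32.5 TPM without and 83.0, 85.6 and 81.2 TPM with HPbCD (log2 difference 1.20 ± 0.10, adjusted p = 2.66e-05). CTSL, a cysteine protease, was at 1192, 1092 and 1177 TPM without and 1872, 1767 and 1833 TPM with HPbCD (log2 difference 0.66 ± 0.06, adjusted p = 3.50e-05). CTSB had a log2 difference of 0.52, CTSD one of 0.44, and the tetraspanin CD63 one of 0.37. LIPA, the acid lipase that frees cholesterol from its esters, did not pass, at 111 TPM without and 97.4 TPM with HPbCD (log2 difference -0.19 ± 0.07, adjusted p = 0.146). LAMP1, an abundant membrane protein of lysosomes, was at 81.9 and 83.8 TPM (log2 difference 0.03 ± 0.04).

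The counts that follow stand beside shares of 2.83% of all tested genes that rose and 1.39% that fell. The proton pump that acidifies lysosomes gave 4 rises among 18 subunits (median 0.14), of which ATP6V0B, from 144 ± 8.20 to 178 ± 5.74 TPM, held the call with each library left out. In autophagy genes, 3 of 36 rose and 2 fell. SQSTM1, the cargo receptor p62, was at 2839, 2735 and 2731 TPM without and 3694, 3816 and 3752 TPM with HPbCD (log2 difference 0.44 ± 0.03, adjusted p = 2.20e-05). It was the only one of these 5 that held the call with each of the 12 libraries left out. Of the sphingolipid genes, 3 of 22 rose, and all 3 held it. They were ASAH1, the acid ceramidase, from 190 ± 2.92 to 247 ± 8.44 TPM, COL4A3BP, the ceramide transfer protein, from 16.8 ± 1.56 to 24.1 ± 1.20 TPM, and SPHK1, a sphingosine kinase, from 10.9 ± 0.58 to 17.4 ± 2.16 TPM. FA2H, which hydroxylates the fatty acids of sphingolipids and was on no list, was at 12.8, 15.0 and 11.5 TPM without and 37.0, 39.9 and 33.4 TPM with HPbCD (log2 difference 1.43 ± 0.15, adjusted p = 0.000157). LPCAT1, which remodels the phospholipid of surfactant, went from 66.2 ± 3.39 to 97.3 ± 3.19 TPM (log2 difference 0.55).

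**Figure D4:**
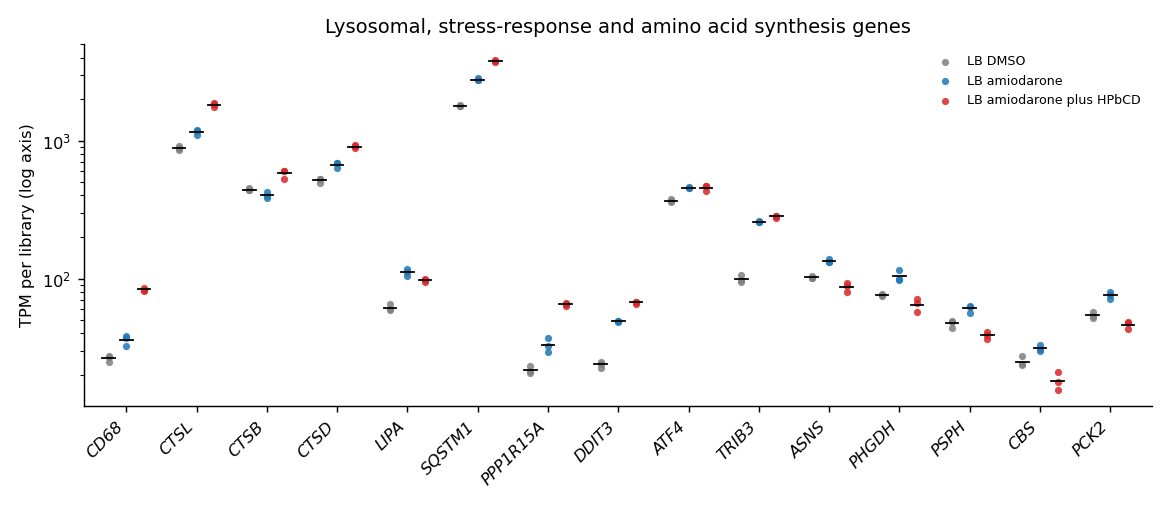
TPM of 15 lysosomal, stress-response and amino acid synthesis genes on a log axis, with 1 point per library and a bar at the mean of 3. Grey is LB DMSO, blue LB amiodarone and red LB amiodarone plus HPbCD. Red lies above blue from CD68 to CTSD and for PPP1R15A, and below both grey and blue in the means of ASNS, PHGDH, PSPH, CBS and PCK2.

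Genes of the ATF4 and CHOP stress response split. Of 35 tested, 4 rose and 7 fell, and the median was 0.00. PPP1R15A, the phosphatase subunit that restores translation after stress, was at 29.3, 36.7 and 32.3 TPM without and 63.2, 65.5 and 66.6 TPM with HPbCD (log2 difference 0.97 ± 0.10, adjusted p = 0.000221). DDIT3, which encodes CHOP, was at 49.4, 49.2 and 48.7 TPM without and 67.6, 67.8 and 65.8 TPM with HPbCD (log2 difference 0.44 ± 0.07, adjusted p = 0.00438). CEBPB, a partner of CHOP, went from 76.7 ± 6.45 to 121 ± 9.81 TPM (log2 difference 0.65). ATF4 itself was at 455 TPM without and 454 TPM with HPbCD (log2 difference 0.00 ± 0.04), and TRIB3, a pseudokinase induced by both factors, at 259 and 282 TPM (log2 difference 0.12, adjusted p = 0.176).

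Of the 7 members that fell, 5 make amino acids, and the others were AARS, a tRNA synthetase, and ALDH1L2, a mitochondrial folate enzyme, neither of which held the call with each library left out. ASNS, the asparagine synthetase, was at 131, 131 and 140 TPM without and 92.2, 87.6 and 79.9 TPM with HPbCD (log2 difference -0.62 ± 0.06, adjusted p = 6.74e-05). All 3 enzymes of serine synthesis fell. PHGDH, the first, was at 115, 97.5 and 99.9 TPM without and 66.9, 70.5 and 56.9 TPM with HPbCD (log2 difference -0.68 ± 0.11, adjusted p = 0.00503). PSAT1, the second, went from 302 ± 23.1 to 215 ± 10.6 TPM (log2 difference -0.49), and PSPH, the third, from 60.7 ± 3.53 to 38.9 ± 2.23 TPM (log2 difference -0.63). CBS, which takes serine into cystathionine, was at 30.6, 30.0 and 33.0 TPM without and 15.6, 17.8 and 21.0 TPM with HPbCD (log2 difference -0.76 ± 0.11, adjusted p = 0.00164). These 5 held the call with each of the 12 libraries left out, and the mean of each with HPbCD was below that of LB DMSO. PCK2, the mitochondrial enzyme that feeds phosphoenolpyruvate into this route, was among the 20 largest falls, at 75.4 ± 4.07 and 46.4 ± 2.83 TPM (log2 difference -0.69). Serine synthesis was singled out after these values were seen.

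In the heat shock, proteasome and hypoxia lists, the genes that passed the test all rose, where 2.83% of all tested genes rose. Heat shock genes rose in 6 of 19 cases with 0 falls (median 0.22), and 17 of the 19 differences were positive. Among the 6 that rose, CRYAB and HSPA6 entered the test only through the libraries with HPbCD, and the number of rises dropped to between 1 and 3 without any one of the 6 libraries compared. BAG3, a co-chaperone, held the call throughout, from 89.3 ± 3.26 to 116 ± 2.64 TPM (log2 difference 0.37, adjusted p = 0.00438). Proteasome subunits passed the test in 7 of 31 cases, all rises, with 4 to 7 doing so without any one of the 6 libraries compared, and 4 without replicate 1 or replicate 3 of LB amiodarone plus HPbCD. The differences were small and nearly all of one sign, with 30 of 31 positive, a highest of 0.29 and a median of 0.15. For 23 of the 31 the libraries with HPbCD all lay above those without, a pattern that 13.1% of all tested genes showed. PSMC4, an ATPase of the cap, went from 357 ± 17.7 to 436 ± 14.1 TPM (log2 difference 0.29), and PSMD3, a lid subunit, from 183 ± 3.72 to 222 ± 7.26 TPM (log2 difference 0.28). Hypoxia and glycolysis genes rose in 9 of 33 cases (median 0.11), and 3 to 5 did without any one of the 6 libraries compared. NDRG1, a gene induced by low oxygen and by iron loss, was at 14.4, 16.4 and 13.4 TPM without and 38.4, 38.8 and 45.1 TPM with HPbCD (log2 difference 1.41 ± 0.10, adjusted p = 1.06e-05). BNIP3, a mitophagy receptor, had a log2 difference of 0.50 and SLC16A3, the lactate exporter, one of 0.48. MT2A was the 1 metallothionein of 8 genes for metal binding and zinc handling that rose, from 252 ± 10.4 to 364 ± 8.57 TPM.

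Few genes that mark the lung epithelium passed the test. Of 10 tested type II and surfactant genes, 2 rose and 0 fell (median 0.15), where 2.83% of all tested genes rose and 1.39% fell. The 2 were SFTPB and LPCAT1, given above, and LPCAT1 held the call with each library left out. SFTPC, for surfactant protein C, was at 523, 547 and 458 TPM without and 592, 674 and 524 TPM with HPbCD, so its groups overlapped (log2 difference 0.22 ± 0.13, adjusted p = 0.419). SFTPD, for surfactant protein D, was at 256 and 309 TPM (log2 difference 0.27 ± 0.09, adjusted p = 0.141), and ABCA3, the lipid pump of lamellar bodies, at 257 and 278 TPM (log2 difference 0.11 ± 0.07). SFTPB, for surfactant protein B, rose from 200 ± 10.9 to 248 ± 24.5 TPM (log2 difference 0.31, adjusted p = 0.0323), but the call was lost without LB DMSO replicate 1 (adjusted p = 0.051), without LB amiodarone replicates 1 and 3 (0.108 and 0.118) and without replicates 1 and 2 of LB amiodarone plus HPbCD (0.0683 and 0.105). Of 23 keratin and junction genes, 0 rose and 1 fell. The latter was CDH1, for the adhesion protein E-cadherin, at 15.8, 13.7 and 13.5 TPM without and 7.29, 11.4 and 8.45 TPM with HPbCD (log2 difference -0.63, adjusted p = 0.0448). Its call was lost without any one of the LB DMSO libraries (adjusted p 0.0601 to 0.0652) or LB amiodarone libraries (0.0975 to 0.143), without replicate 1 or 3 of LB amiodarone plus HPbCD (0.171 and 0.144) and without A549 DMSO replicate 1 (0.0548).

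Of 29 mesenchymal transition and matrix genes, 4 fell and 1 rose (median -0.02), where 1.39% of all tested genes fell and 2.83% rose. Of the 4, 3 were among the 20 largest falls. MMP2, a gelatinase, was at 8.28, 9.86 and 9.02 TPM without and 4.74, 5.40 and 5.16 TPM with HPbCD (log2 difference -0.72 ± 0.10, adjusted p = 0.00205). COL5A1, a fibrillar collagen chain, was at 9.45, 9.10 and 9.72 TPM without and 5.45, 5.41 and 5.85 TPM with HPbCD (log2 difference -0.67 ± 0.09, adjusted p = 0.00177). COL1A1, the main chain of type I collagen and one of the 10 fibroblast markers, went from 7.49 ± 1.52 to 3.57 ± 0.88 TPM (log2 difference -0.90, adjusted p = 0.0105), and without LB amiodarone replicate 3 its adjusted p was 0.0509. The fibroblast markers as a whole summed lower with HPbCD, as given above, and their part in the falls of matrix genes was not tested.

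Of the 20 largest falls, 12 held the call with each of the 12 libraries left out, against all 20 of the largest rises. Besides those named, they included TPPP3, a tubulin-binding protein, at 13.3, 14.9 and 15.1 TPM without and 5.79, 8.02 and 7.59 TPM with HPbCD (log2 difference -0.93 ± 0.14, adjusted p = 0.00237). NOTCH3, a Notch receptor, went from 7.11 ± 1.24 to 3.65 ± 0.14 TPM (log2 difference -0.79), and SFRP5, a secreted Wnt inhibitor, from 26.9 ± 3.46 to 15.9 ± 2.41 TPM (log2 difference -0.73). SCG2, a granule protein of secretory cells, went from 11.3 ± 0.81 to 6.73 ± 0.30 TPM (log2 difference -0.67). Not one of these 20, CYP24A1, the enzyme that breaks down active vitamin D, also fell. It was at 329, 364 and 355 TPM without and 216, 243 and 214 TPM with HPbCD (log2 difference -0.64 ± 0.11, adjusted p = 0.00503). The 3 genes at least 2-fold lower were AC015813.4, MIR99AHG and MTCP1, all under 7 TPM. AC015813.4 averaged 3.17 TPM with amiodarone and 0 with HPbCD, and so entered the test only through the libraries without HPbCD. MIR99AHG lost the call without LB amiodarone replicate 1 or 3 (adjusted p 0.0713 and 0.122) or without any one library with HPbCD (0.0679 to 0.116). MTCP1 lost it without any one of the LB amiodarone libraries (0.0689 to 0.128), without replicate 1 or 2 of LB amiodarone plus HPbCD (0.14 and 0.0778) and without LB DMSO replicate 2 (0.0527).

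Several programmes gave no call. None of 34 proliferation genes, 17 ferritin and iron genes or 13 mitochondrially encoded genes passed, and the medians were 0.02, 0.04 and -0.12. The mitochondrial share of TPM was 5.61, 8.49 and 6.55% without and 5.38, 6.73 and 6.31% with HPbCD. Of 31 targets of the oxidative stress factor NRF2, 0 rose and 1 fell, and HMOX1, the heme oxygenase among them, was at 282, 274 and 244 TPM without and 341, 325 and 296 TPM with HPbCD (log2 difference 0.27 ± 0.11, adjusted p = 0.236). A p that missed the threshold does not show that these genes did not differ. At 3 libraries a group, small changes were often missed: in data simulated for this comparison on its 13873 genes, the test found 30% of changes of 1.25-fold, 72% of those of 1.5-fold, 90% of those of 2-fold and 100% of those of 4-fold, and 6.41% of its calls were false. In the simulation, 50 genes were changed by each fold, none of them among the genes lowest in level, and genes varied independently. The shares do not cover the lowest genes or genes that vary together.

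**Figure D5:**
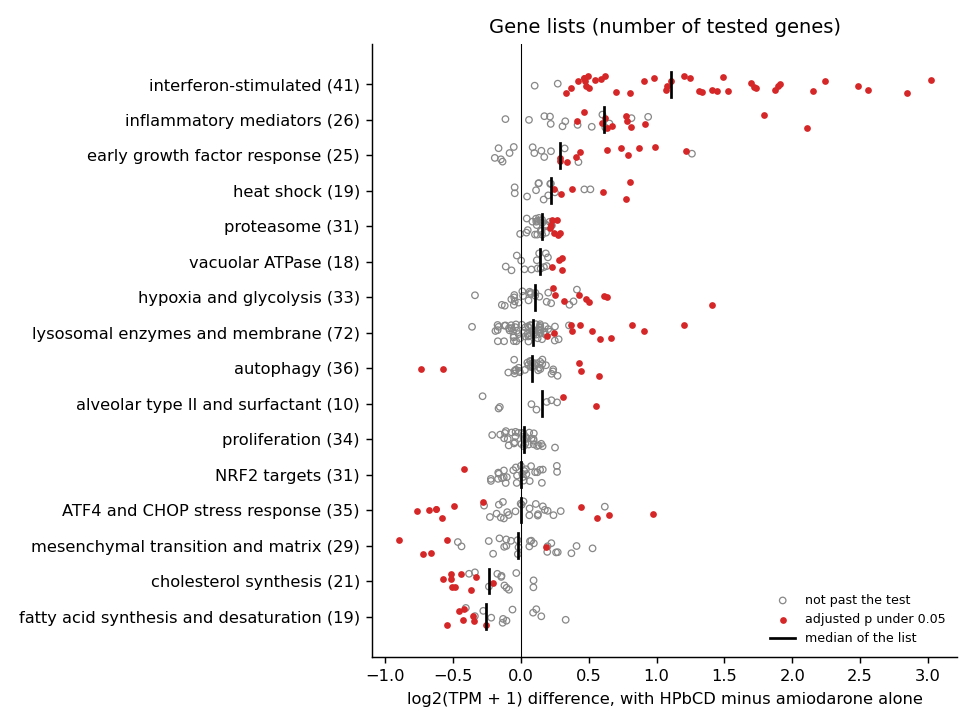
Log2(TPM + 1) differences, with HPbCD minus amiodarone alone, of the tested members of 16 gene lists. Each point is 1 gene, filled in red where it passed the test and open where it did not, the number of tested members stands in brackets and the black bar is the list's median. The medians run from 1.11 for interferon-stimulated genes to -0.26 for fatty acid synthesis and desaturation, and the ATF4 and CHOP list has red points on both sides of 0.

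The level that made a gene a member left some at its edge. PELI1, GP1BA and NEURL1B were just inside, at means of 1.0, 1.0 and 1.002 TPM, and RGS5, IFI16 and AC078909.1 just outside, at 0.999, 0.998 and 0.998 TPM. 392 members had a mean of at least 1 TPM in only one of the groups, and 19 of these were called. RSAD2, an antiviral enzyme of the interferon list left out by its level, was at 0.48, 0.25 and 0.38 TPM without and 1.09, 0.92 and 1.33 TPM with HPbCD.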

How the data were processed

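Total RNA of the cultured lines went into a stranded mRNA protocol with paired reads of 100 bp, per the labels' protocols. The authors deposited TPM values in 1 table with gene symbols as rows. The submitters' processing notes name STAR 2.7.3a, RSEM 1.3.1 and GRCh38. RSEM divides reads shared between near-identical genes by estimation, so such genes are less certain, and TPM is relative to each library's total. The genes were counted on an annotation release not given in the sources used here.

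From the table's 57189 rows, 37 without a value were left out. Genes averaging 1 TPM or more in the 6 libraries compared were tested on log2(TPM + 1), a pseudocount of 1, with limma 3.58.1 in R 4.3.3: a linear model of all 4 groups and 12 libraries (8 residual degrees of freedom), a mean-variance trend, two-sided p-values and Benjamini-Hochberg adjustment, with a threshold of 0.05. The unit TPM allows no count model. Gene lists, drawn from textbook knowledge, are described by counts and medians. The text could name the 20 largest rises and 20 largest falls past the test whose groups did not overlap, and whose higher group averaged 5 TPM or more, the 5 members of each list with the largest change past the test, the members of short lists and a fixed set of lipid, lysosome, surfactant and stress genes. Other list members, interferons and their receptors and genes kept for holding their call were named after their values were seen. The members and lists were chosen with earlier results of these data known. Alternatives were other pseudocounts, filters, scalings, limma settings, a replicate block and leaving out each library. The fit was tested on simulated data. 0 value columns were left without a sample.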

Additional observations from a re-analysis of the deposited data

How the results depend on the processing

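The counts of genes depended on the settings more than the directions did. Without any one of the 12 libraries, 205 to 530 genes rose, 84 to 306 fell, 45 to 55 rose and 1 to 4 fell at least 2-fold. Deviations from the group mean correlated at 0.0569, 0.209 and 0.037 between same-numbered libraries of replicates 1, 2 and 3. Between differently numbered libraries they correlated at -0.121 to 0.0664. These values do not settle whether the replicate numbers pair the samples, and the main fit did not pair them. With a replicate block 416 genes rose and 209 fell. Without a filter 106 genes fell, and with array weights 320 did. At least 2-fold falls numbered 10 at a pseudocount of 0.1 TPM, 5 with array weights and 0 at a pseudocount of 5 TPM or a filter at a mean of 5 TPM. At least 2-fold rises numbered 23 at the pseudocount of 5 TPM. A larger pseudocount shrinks differences of low genes by construction, and for the other settings the cause was not tested. Interferon-stimulated rises numbered 34 to 39 and cholesterol synthesis falls 6 to 9 over all settings. Of the 129 genes past the test that the naming rule covered, none changed sign under an alternative, and 74 passed under every alternative. Sign was not checked in this way for named genes that did not pass, or for genes named after their values were seen. TPM holds no depth, so calls of low genes rest on the replicates alone.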

Other observations

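Of the 50 genes at least 2-fold higher with HPbCD, 27 were on no interferon list used here, and 22 of these held the call with each of the 12 libraries left out. The 22 include BATF2, IGFBP1, IL24 and IL4I1, which averaged under 1 TPM without HPbCD and entered the test only through the libraries with HPbCD. The genes named in this section were picked after their values were seen. Several are known as interferon-induced: PLSCR1, a membrane scramblase, was at 45.3, 44.1 and 43.8 TPM without and 110, 84.8 and 89.0 TPM with HPbCD (log2 difference 1.06 ± 0.09, limma adjusted p = 2.89e-05), and DDX60, SAMD9 and HELZ2 had log2 differences of 1.39, 1.04 and 1.28. IL24, a cytokine of the IL10 family, was at 0.06, 0.16 and 0.21 TPM without and 3.58, 3.54 and 4.90 TPM with HPbCD (log2 difference 2.12 ± 0.16), so that it entered the test only through the libraries with HPbCD. CCL26, a chemokine for eosinophils, went from 4.33 ± 0.39 to 10.4 ± 0.93 TPM. NR4A1, an orphan nuclear receptor induced early after many stimuli, went from 21.3 ± 1.49 to 48.5 ± 3.21 TPM (log2 difference 1.15 ± 0.14).

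Other motifs were counted in the promoter windows of the lists, against the share of all windows and of the windows of tested genes. CCAAT was present in 12 of 16 cholesterol synthesis windows (75%), 60.7% of ATF4 and CHOP windows, 56.2% of fatty acid synthesis windows and 41.9% of interferon-stimulated windows, against 35.7% of all and 36.8% of tested windows. TCACNCCAC was in 0 of 16 cholesterol synthesis windows, against 1.15% and 0.984%. TGATGNAA was in 7 of 28 windows of the ATF4 and CHOP list (25%), against 3.67% and 1.5%. These 7 included ASNS and AARS, which fell, and ATF3, CHAC1, SLC3A2, SLC7A1 and NARS1, which did not pass the test. The windows of PHGDH, PSAT1 and CBS, which fell, lacked it, as did those of DDIT3, CEBPB, GDF15 and PPP1R15A, which rose. TCACGTGA was in 8 of 51 lysosomal windows (15.7%), against 1.04% of all and 2.01% of tested windows. None of these 8 was among the 11 lysosomal genes that rose. Only 51 of the 72 tested lysosomal genes had a window and only 11 of the 72 rose, so an absence among 8 says little. These are counts of letters in windows of 300 bases, searched on both strands, and say nothing of which factors bind there.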
